A study of Homo sapiens with 12 samples.

Results

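Proteins and lipids that pass through the Golgi apparatus receive their sugar chains from nucleotide sugars, which are made in the cytosol or the nucleus and have to be carried across the Golgi membrane. The 10 genes described here serve that supply line and the trimming of N-glycans that follows it. They are 6 transporters of the SLC35 family, SLC35A1, SLC35A2, SLC35A3, SLC35B1, SLC35C1 and SLC35D1, and 4 mannosidases of the Golgi, MAN1A1, MAN1A2, MAN2A1 and MAN2A2. They were taken by name and not by their values, though earlier results of these data were known when they were chosen. All 10 of them have a row in each of the 4 deposited tables, which share 26357 gene names, and all 10 passed the filter on low values that left 11786 genes to be tested.

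Nucleotide sugar transporters work as exchangers, which bring in a nucleotide sugar and let out the matching nucleoside monophosphate. SLC35A1 carries CMP-sialic acid, SLC35A2 carries UDP-galactose, SLC35A3 is a UDP-N-acetylglucosamine transporter and SLC35C1 carries GDP-fucose. SLC35D1 carries UDP-glucuronic acid and UDP-N-acetylgalactosamine and SLC35B1 exchanges ATP for ADP, and both of these are placed in the endoplasmic reticulum (ER) rather than the Golgi. MAN1A1 and MAN1A2 remove the outer mannoses of an N-glycan in the Golgi, the enzyme MGAT1 then adds an N-acetylglucosamine, and MAN2A1 and MAN2A2 remove further mannoses so that complex N-glycans can be built.

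RNA sequencing was used to ask how salinomycin, a polyether that carries potassium ions across membranes, changes gene expression in a cell model of the epithelial to mesenchymal transition (EMT). HMLE cells are an immortalised human mammary epithelial line, grown here in 10% serum with insulin and hydrocortisone. Both lines derive from it: HMLE-Twist, which the labels give the phenotype EMT, and HMLE-pBp, labelled nonEMT. The 4 groups were HMLE-Twist with 0.2 uM salinomycin for 24 hours, HMLE-Twist with the DMSO mock, HMLE-pBp with 0.2 uM salinomycin for 24 hours and HMLE-pBp with the DMSO mock, each as 3 biological replicates.

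The 12 libraries held 17.91 to 26.73 megareads assigned to genes. TWIST1, the gene that names the first line, lay at 693 to 1163 FPKM in HMLE-Twist with salinomycin and 495 to 1089 FPKM in HMLE-Twist mock, against 2.10 ± 0.269 FPKM in HMLE-pBp with salinomycin and 2.47 ± 0.0352 FPKM in HMLE-pBp mock (SD, n = 3 each). FPKM is fragments per kilobase of gene per megaread, here rebuilt on 1 scale for all libraries from whole reads recovered from the deposited values. The summed FPKM of 12 epithelial markers was 5.27 to 10.9 in the 6 HMLE-Twist libraries and 3014 to 3945 in the 6 HMLE-pBp libraries. The sum of 12 mesenchymal markers was 4221 to 6029 and 471 to 598 FPKM in the same order. Some of its members differed far less between the lines. SPARC averaged 401 and 276 FPKM in HMLE-Twist with salinomycin and mock, and 278 and 201 FPKM in HMLE-pBp. COL6A3 averaged 1.15 and 0.569 FPKM, and 0.952 and 0.459 FPKM, in that order. Of 6 leukocyte markers 4 stayed under 1 FPKM in every library, among them PTPRC, which marks all leukocytes, at 0.0236 FPKM or less. The other 2, CD14 and CSF1R, carried the sum of that list, which was 1.39 to 1.44 FPKM in HMLE-Twist with salinomycin, 0.832 to 2.16 in HMLE-Twist mock, 8.82 to 17.5 in HMLE-pBp with salinomycin and 21.1 to 31.6 in HMLE-pBp mock. CD14 lay between 0.629 and 1.76 FPKM in HMLE-Twist and between 6.16 and 28.6 FPKM in HMLE-pBp, and CSF1R between 0.123 and 0.192 and between 2.26 and 2.83 FPKM. Of 6 endothelial markers 5 stayed under 1 FPKM in every library, with a sum of 0.755 to 1.82 FPKM in HMLE-Twist and 0.0351 to 0.136 FPKM in HMLE-pBp, and the sum of 6 luminal breast markers was 38.3 to 51.8 and 417 to 564 FPKM in that order. In the luminal list GATA3 ran the other way, at 4.64 and 6.61 FPKM in HMLE-Twist with salinomycin and mock, and 2.83 and 3.57 FPKM in HMLE-pBp. The part of these marker differences in the results below was not tested.

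Between 37 and 5691 reads of a library fell on a gene of this group, and apart from MAN1A1 in HMLE-pBp the lowest number was 505. The gene length recovered from the deposited values sets the FPKM level. The mock reads were recovered together with it, so a wrong multiple of the length would also change a ratio of salinomycin to mock. This length was within 20% of the union of exons in the reference (GENCODE release 29, basic) for SLC35A1, SLC35A2, SLC35B1, SLC35C1, SLC35D1, MAN1A1 and MAN2A2. It was 0.386 times the union for SLC35A3, 0.628 for MAN1A2 and 1.52 for MAN2A1, so that levels of these 3 genes relative to other genes depend on the gene model.

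In HMLE-Twist cells 4 of the 6 transporters and 0 of the 4 mannosidases passed the test for salinomycin, and 4 and 1 with the replicate number as a block. Of the mannosidases MAN2A2 had an unadjusted limma p under 0.05, and voom called 0. SLC35A2 and SLC35C1 rose to 2.49 and 2.17 times their mock level, SLC35A1 and SLC35D1 fell to 0.751 and 0.769 times theirs, and the other 6 genes did not pass the test. Of the 10 genes 4 were thus called at a Benjamini-Hochberg adjusted p under 0.05 (limma on log2(FPKM + 1), all 12 libraries in 1 fit), 2 higher and 2 lower, where 26.6% of all 11786 genes tested were called in this comparison, 12.9% higher and 13.7% lower. In HMLE-pBp cells 2 of the 10 were called, SLC35A2 higher and MAN2A2 lower, where 19.1% of all genes tested were called, 9.75% higher and 9.40% lower. The 10 genes had a median log2 fold change of -0.02 for HMLE-Twist and of -0.14 for HMLE-pBp, beside -0.01 over all genes tested in both. The salinomycin and mock libraries did not overlap for 5 of the 10 in HMLE-Twist, against 40.3% of all genes tested, and for 4 of the 10 in HMLE-pBp, against 41.7%. With the replicate number as a block the calls were 5 and 3 of the 10, beside 4465 and 3959 of all genes tested, against 3137 and 2257 without it. In bulk RNA, fewer cells that express a gene and less RNA per cell cannot be told apart.

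**Figure D1:**
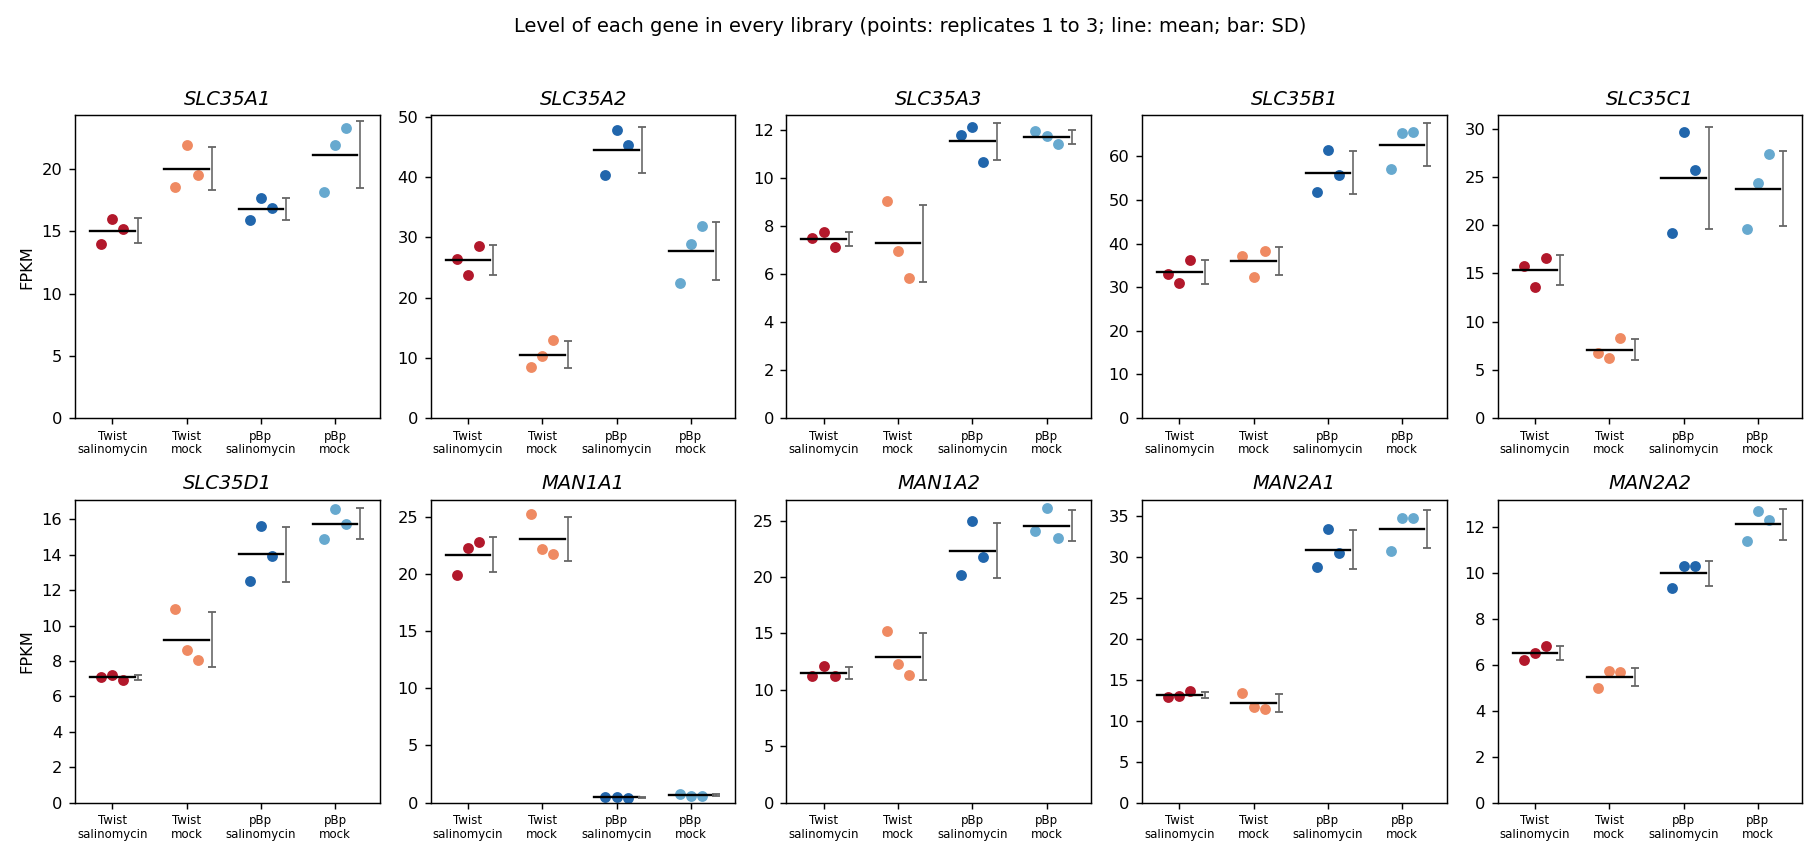
FPKM (vertical axis, from 0) of each of the 10 genes in all 12 libraries, in 1 panel per gene, with HMLE-Twist salinomycin, HMLE-Twist mock, HMLE-pBp salinomycin and HMLE-pBp mock from left to right. Points are replicates 1 to 3, lines are means and bars are SDs; the 3 salinomycin points of SLC35A2 lie above the 3 mock points in both lines, and MAN1A1 lies between 19.96 and 25.3 FPKM in HMLE-Twist and under 1 FPKM in HMLE-pBp.

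SLC35A2 and SLC35C1 are the 2 genes of the group called higher in HMLE-Twist cells without a block, while MAN2A2 was called higher only with it. The 250 bases before the most upstream RefSeq start of SLC35A2 and SLC35C1 are shown (GRCh38.p14, 5′ to 3′ on the strand of the gene), at chrX:48911959-48912208 on the minus strand and chr11:45803829-45804078 on the plus strand.
SLC35A2: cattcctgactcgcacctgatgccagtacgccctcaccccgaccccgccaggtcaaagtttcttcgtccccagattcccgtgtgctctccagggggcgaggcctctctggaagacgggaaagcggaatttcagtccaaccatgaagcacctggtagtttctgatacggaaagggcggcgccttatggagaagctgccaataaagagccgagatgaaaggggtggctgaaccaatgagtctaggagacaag
SLC35C1: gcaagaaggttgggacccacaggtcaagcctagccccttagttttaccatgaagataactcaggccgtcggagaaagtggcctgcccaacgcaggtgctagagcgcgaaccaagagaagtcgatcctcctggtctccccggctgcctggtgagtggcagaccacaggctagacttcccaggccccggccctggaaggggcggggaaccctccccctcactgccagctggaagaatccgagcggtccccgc
These windows hold no capitals because none of the 6 motifs searched was found in them. The motifs are elements of the ER and Golgi stress responses: ERSE (CCAAT, 9 bases of any kind, CCACG), ERSE-II (ATTGG, 1 base of any kind, CCACG), UPRE (TGACGTGG), the Golgi apparatus stress element GASE (ACGTGGC), CRE (TGACGTCA) and the C/EBP-ATF site (TGATGCAA). They were searched on both strands from 250 bases before to 50 bases after every RefSeq start of the group, which gave 16 windows of 9 genes, while MAN1A2 had no window in the table used. UPRE and GASE share the letters ACGTGG, and a UPRE followed by C would count under both. The search found 1 match, a GASE on the minus strand of the most downstream of the 3 SLC35C1 starts, at bases -56 to -50 from that start. It is shown in capitals within 30 bases at chr11:45805082-45805111.
SLC35C1 downstream start: ggccctttaagGCCACGTgggggcgtgtca
Of 35116 promoter windows of the same length in the RefSeq table, 3.22% held a GASE, and 0.0541% to 1.85% held any of the other 5. A match is a string of letters and not a shown binding site, and a window without a match says nothing of the factors that act on it.

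SLC35A2, the UDP-galactose transporter that supplies galactosyltransferases, changed most. In HMLE-Twist it had 26.4, 23.7 and 28.6 FPKM in the 3 salinomycin libraries, against 8.47, 10.3 and 12.9 FPKM in the 3 mock libraries. In HMLE-pBp it had 40.4, 47.8 and 45.4 FPKM with salinomycin, against 22.4, 28.99 and 31.9 FPKM with the mock. The groups did not overlap in either line, and the salinomycin libraries of HMLE-Twist lay in the range of the mock libraries of HMLE-pBp.

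The log2 fold change of SLC35A2 was 1.25 ± 0.15 in HMLE-Twist (SE; limma adjusted p = 0.000130), a 2.49-fold rise of the mean FPKM. In HMLE-pBp it was 0.67 ± 0.15 (limma adjusted p = 0.0101), a 1.60-fold rise. Within replicate numbers the ratio of salinomycin to mock was 3.12, 2.30 and 2.22 in HMLE-Twist and 1.80, 1.65 and 1.42 in HMLE-pBp, so each ratio of HMLE-Twist was above each ratio of HMLE-pBp. The difference of the 2 responses, 0.58 ± 0.21 on the log2 scale with a 95% interval of 0.11 to 1.04, did not pass without a block (limma adjusted p = 0.0900) and passed with the replicate number as a block (0.0152) or with a block within each line (0.0144). It also passed without HMLE-Twist mock replicate 3 (0.0272) or without HMLE-pBp mock replicate 1 (0.0425), and over all alternatives the adjusted p ran from 0.0144 to 0.209.

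SLC35C1, the GDP-fucose transporter, whose loss in people causes a deficiency of fucosylated leukocyte ligands, had 15.7, 13.6 and 16.6 FPKM in HMLE-Twist with salinomycin, against 6.71, 6.19 and 8.31 FPKM in HMLE-Twist mock. In HMLE-pBp it had 19.2, 29.7 and 25.7 FPKM with salinomycin, against 19.6, 24.4 and 27.3 FPKM with the mock. The groups stood apart in HMLE-Twist and overlapped in HMLE-pBp, where replicate 1 was the lowest library of both groups.

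The log2 fold change of SLC35C1 was 1.02 ± 0.16 in HMLE-Twist (limma adjusted p = 0.000864), a 2.17-fold rise, and 0.05 ± 0.16 in HMLE-pBp (limma adjusted p = 0.85; 95% interval -0.30 to 0.41). The difference of responses was 0.97 ± 0.23 (limma adjusted p = 0.0194), 1 of 2 differences called among the 10 genes, both higher in HMLE-Twist, where 13.9% of all genes tested were called, 7.08% higher and 6.79% lower. Without HMLE-Twist mock replicate 2, HMLE-Twist salinomycin replicate 1, HMLE-Twist salinomycin replicate 3 or HMLE-pBp mock replicate 3 its adjusted p was 0.0524, 0.0507, 0.0534 and 0.0556, and over all alternatives it ran from 0.000887 to 0.0556. With the replicate number as a block 3 of the 10 differences were called, beside 3479 of all 11786 genes tested.

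SLC35A1, the CMP-sialic acid transporter that supplies sialyltransferases, moved the other way. It had 13.98, 15.97 and 15.2 FPKM in HMLE-Twist with salinomycin, against 18.6, 21.9 and 19.5 FPKM in HMLE-Twist mock. In HMLE-pBp it had 15.9, 17.7 and 16.8 FPKM with salinomycin, against 18.1, 21.9 and 23.3 FPKM with the mock. In both lines the highest salinomycin library was below the lowest mock library.

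SLC35A1 fell by 0.39 ± 0.10 on the log2 scale in HMLE-Twist (limma adjusted p = 0.0137), to 0.751 times its mock mean, and the call was lost without HMLE-Twist mock replicate 2 (0.0604) or HMLE-Twist salinomycin replicate 1 (0.0625), in a range of 0.00147 to 0.0625 over all alternatives. In HMLE-pBp the log2 fold change was -0.31 ± 0.10, which just missed the threshold (limma adjusted p = 0.0525) and passed with the replicate number as a block (0.00748), with a block within each line (0.00926), without HMLE-pBp mock replicate 1 (0.0209), with scaling by total reads (0.0443), in TPM (0.0456) and with a filter at a mean of 5 FPKM (0.0486). Over all alternatives it ran from 0.00748 to 0.207. The 2 responses differed by -0.08 ± 0.14 (limma adjusted p = 0.725; 95% interval -0.39 to 0.23).

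SLC35D1, the transporter of UDP-glucuronic acid and UDP-N-acetylgalactosamine, which cartilage proteoglycans need, had 7.10, 7.21 and 6.92 FPKM in HMLE-Twist with salinomycin, against 10.95, 8.59 and 8.08 FPKM in HMLE-Twist mock. Mock replicate 1 was the highest library, and the groups did not overlap. It fell by 0.33 ± 0.11 on the log2 scale (limma adjusted p = 0.0435), a call close to the threshold. It was lost without HMLE-Twist mock replicate 1 (0.112) or 2 (0.0604) and without HMLE-Twist salinomycin replicate 1 (0.102), 2 (0.0860) or 3 (0.121), with no filter (0.0607) and in TPM (0.0713), and over all alternatives the adjusted p ran from 0.0135 to 0.121. In HMLE-pBp SLC35D1 had 12.5, 15.6 and 13.9 FPKM with salinomycin, against 14.9, 16.6 and 15.8 FPKM with the mock, groups that overlapped, with a log2 fold change of -0.16 ± 0.11 (limma adjusted p = 0.321).

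The 2 other transporters were called in neither line. SLC35A3 had 7.52, 7.75 and 7.15 FPKM in HMLE-Twist with salinomycin, against 9.04, 6.97 and 5.86 FPKM in HMLE-Twist mock, and 10.7 to 12.1 FPKM in HMLE-pBp with salinomycin, against 11.4 to 12.0 FPKM in HMLE-pBp mock. Its log2 fold change was 0.05 ± 0.12 in HMLE-Twist (95% interval -0.21 to 0.30) and -0.02 ± 0.12 in HMLE-pBp (95% interval -0.28 to 0.23). SLC35B1 had 33.1, 30.9 and 36.3 FPKM in HMLE-Twist with salinomycin, against 37.2, 32.3 and 38.3 FPKM in HMLE-Twist mock, and 51.8 to 61.5 FPKM in HMLE-pBp with salinomycin, against 57.1 to 65.7 FPKM in HMLE-pBp mock. Its log2 fold change was -0.10 ± 0.10 in HMLE-Twist (95% interval -0.31 to 0.11) and -0.15 ± 0.10 in HMLE-pBp (95% interval -0.37 to 0.06).

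**Figure D2:**
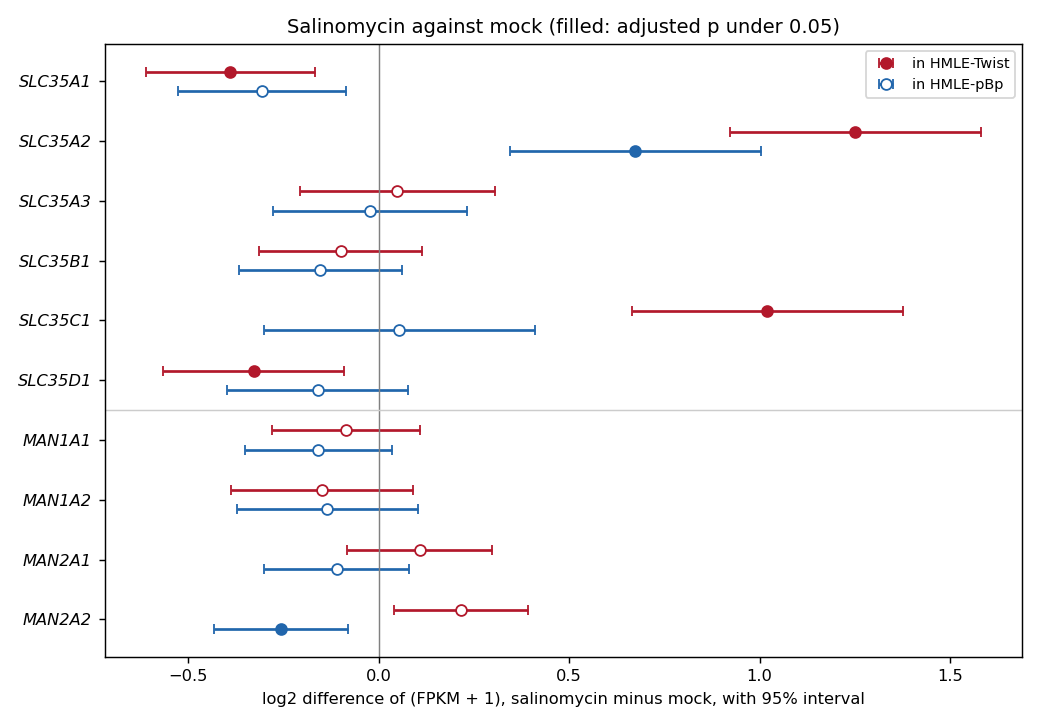
Log2 difference of (FPKM + 1), salinomycin minus mock (horizontal axis), of the 10 genes in HMLE-Twist (red, upper mark) and HMLE-pBp (blue, lower mark), with 95% intervals from the limma fit; filled marks passed at an adjusted p under 0.05. SLC35A2 lies to the right of 0 in both lines, at 1.25 and 0.67, and SLC35C1 lies at 1.02 in HMLE-Twist and 0.05 in HMLE-pBp.

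The make-up of the transporter messages differed between salinomycin and mock libraries. SLC35A2 made up 25.1% ± 1.01 of the summed FPKM of the 6 transporters in HMLE-Twist with salinomycin and 11.7% ± 2.29 in HMLE-Twist mock (SD, n = 3 each). In HMLE-pBp it made up 26.5% ± 0.543 with salinomycin and 17.0% ± 1.32 with the mock. SLC35C1 made up 14.6% ± 0.787 in HMLE-Twist with salinomycin and 7.84% ± 0.962 in HMLE-Twist mock, and 14.7% ± 1.80 and 14.5% ± 0.985 in HMLE-pBp with salinomycin and with the mock. SLC35A1 made up 14.4% ± 1.47 in HMLE-Twist with salinomycin and 22.3% ± 2.73 in HMLE-Twist mock, and 10.03% ± 0.450 and 12.95% ± 0.357 in HMLE-pBp with salinomycin and with the mock. SLC35B1 held the largest share in all 12 libraries, between 31.1% and 41.2%. These shares are descriptions, and they depend on the gene lengths used. The sum of the 6 transporters itself was 105 ± 5.87 FPKM in HMLE-Twist with salinomycin and 90.0 ± 3.46 FPKM in HMLE-Twist mock, and 168 ± 16.4 and 163 ± 16.6 FPKM in HMLE-pBp with salinomycin and with the mock.

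Among the mannosidases, the response of MAN2A2, alpha-mannosidase IIx, differed in sign between the 2 lines. It had 6.19, 6.51 and 6.81 FPKM in HMLE-Twist with salinomycin, against 5.00, 5.71 and 5.67 FPKM in HMLE-Twist mock. In HMLE-pBp it had 9.33, 10.3 and 10.3 FPKM with salinomycin, against 11.4, 12.7 and 12.3 FPKM with the mock. Every salinomycin library was above every mock library in HMLE-Twist and below every mock library in HMLE-pBp.

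The log2 fold change of MAN2A2 was 0.22 ± 0.08 in HMLE-Twist, which did not pass without a block (limma adjusted p = 0.0661) and passed with the replicate number as a block (0.0159) or with a block within each line (0.0236), with a range of 0.0159 to 0.204 over all alternatives. In HMLE-pBp it was -0.26 ± 0.08 (limma adjusted p = 0.0437). That call was lost when any 1 of the 6 libraries of HMLE-pBp was left out, with an adjusted p of 0.0502, 0.147 and 0.138 without mock replicates 1, 2 and 3 and of 0.147, 0.0732 and 0.0557 without salinomycin replicates 1, 2 and 3, and with a pseudocount of 0.1 (0.0525), in a range of 0.00874 to 0.147 over all alternatives. The difference of the 2 responses was 0.47 ± 0.11 (limma adjusted p = 0.0199). It was lost without HMLE-Twist salinomycin replicate 3 (0.0604), HMLE-pBp mock replicate 2 (0.0573) or HMLE-pBp mock replicate 3 (0.0569), in a range of 0.00310 to 0.0604.

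The 3 other mannosidases were called in neither line. MAN2A1, alpha-mannosidase II, had 12.9, 13.03 and 13.6 FPKM in HMLE-Twist with salinomycin, against 13.4, 11.7 and 11.4 FPKM in HMLE-Twist mock, and 28.7 to 33.5 FPKM in HMLE-pBp with salinomycin, against 30.7 to 34.8 FPKM in HMLE-pBp mock. MAN1A2, alpha-mannosidase IB, had 11.2, 12.1 and 11.2 FPKM in HMLE-Twist with salinomycin, against 15.3, 12.3 and 11.3 FPKM in HMLE-Twist mock, and 20.2 to 25.0 FPKM in HMLE-pBp with salinomycin, against 23.5 to 26.1 FPKM in HMLE-pBp mock. MAN1A1, alpha-mannosidase IA, had 19.96, 22.3 and 22.8 FPKM in HMLE-Twist with salinomycin, against 25.3, 22.2 and 21.8 FPKM in HMLE-Twist mock. These groups overlapped for all 3 genes, and the log2 fold changes of the 3 genes lay between -0.15 and 0.11 in HMLE-Twist.

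In HMLE-pBp cells MAN1A1 was near the floor of the measurement, at 0.511, 0.481 and 0.369 FPKM with salinomycin, against 0.711, 0.619 and 0.535 FPKM with the mock. These values rest on 54, 46 and 37 reads with salinomycin and 73, 53 and 62 reads with the mock. The groups did not overlap and the mean with salinomycin was 0.729 times the mock mean, but the log2 fold change of -0.16 ± 0.09, which the added 1 makes smaller than the ratio of the FPKM values, did not pass (limma adjusted p = 0.228).

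The larger contrast in the group was the one between the lines. Each phenotype is represented by 1 line, so these tests rest on the spread between cultures and not between independent lines. In mock-treated cells 9 of the 10 genes differed between HMLE-Twist and HMLE-pBp, MAN1A1 higher and 8 lower in HMLE-Twist, where 73.5% of all genes tested were called, 36.2% higher and 37.3% lower. Under salinomycin the same 9 were called in the same directions, where 63.5% of all genes tested were called, 31.4% higher and 32.1% lower. The count of 9 is therefore to be read against a background in which most genes differ. It includes MAN1A1, which passed the filter on low values through HMLE-Twist alone. The median log2 fold change of the 10 genes was -0.83 under the mock and -0.69 under salinomycin, beside -0.00 and 0.01 over all genes tested. The FPKM of the 2 lines did not overlap for those 9 genes, as for 74.0% of all genes tested under the mock and 70.0% under salinomycin.

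The lines also differ in the marker sums given above, 5.27 to 10.9 FPKM of epithelial markers in HMLE-Twist and 3014 to 3945 FPKM in HMLE-pBp. Scaling by total reads moved the median of all genes tested to 0.13 under the mock and 0.14 under salinomycin, with 5079 genes called higher and 3758 lower under the mock (4267 and 4397 in the scaling used here) and 4757 higher and 3113 lower under salinomycin (3701 and 3782 here). The 9 genes were called in the same directions in that scaling as well. The difference of SLC35A1 under the mock, which was not called, changed sign there.

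MAN1A1 stood apart from the rest of the group. It lay between 19.96 and 25.3 FPKM in the 6 HMLE-Twist libraries and between 0.369 and 0.711 FPKM in the 6 HMLE-pBp libraries. The mean was 47.8 times higher in HMLE-Twist with salinomycin than in HMLE-pBp with salinomycin and 37.1 times higher in HMLE-Twist mock than in HMLE-pBp mock. On the log2(FPKM + 1) scale, which understates a change from such a low level, these were 3.96 ± 0.09 (limma adjusted p = 1.52e-12) and 3.89 ± 0.09 (limma adjusted p = 1.72e-12). MAN1A1 passed the filter through HMLE-Twist alone, since no HMLE-pBp library reached 1 FPKM. Its call between the lines is therefore not independent of that filter. Its close relative MAN1A2 ran the other way, with a mean of 11.5 ± 0.502 FPKM in HMLE-Twist with salinomycin and 22.3 ± 2.44 FPKM in HMLE-pBp with salinomycin, and of 12.96 ± 2.05 FPKM in HMLE-Twist mock and 24.5 ± 1.38 FPKM in HMLE-pBp mock. Its log2 fold changes between the lines were -0.89 ± 0.11 and -0.88 ± 0.11 (limma adjusted p = 1.45e-05 and 1.26e-05).

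MAN1A1 thus made up 65.3% ± 1.55 of the summed FPKM of MAN1A1 and MAN1A2 in HMLE-Twist with salinomycin and 64.2% ± 1.76 in HMLE-Twist mock, against 2.01% ± 0.410 in HMLE-pBp with salinomycin and 2.47% ± 0.349 in HMLE-pBp mock (SD, n = 3 each). The sum of both genes was 33.2 ± 1.77 FPKM and 36.0 ± 3.94 FPKM in these HMLE-Twist groups and 22.8 ± 2.44 FPKM and 25.2 ± 1.40 FPKM in these HMLE-pBp groups. The third Golgi enzyme of this kind, MAN1C1, was below the filter. With the reference lengths in place of the recovered ones, the levels of MAN1A2 were lower, at 8.14 ± 1.29 FPKM in HMLE-Twist mock and 15.4 ± 0.865 FPKM in HMLE-pBp mock, and those of MAN1A1 were 23.1 ± 1.90 and 0.623 ± 0.0885 FPKM.

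**Figure D3:**
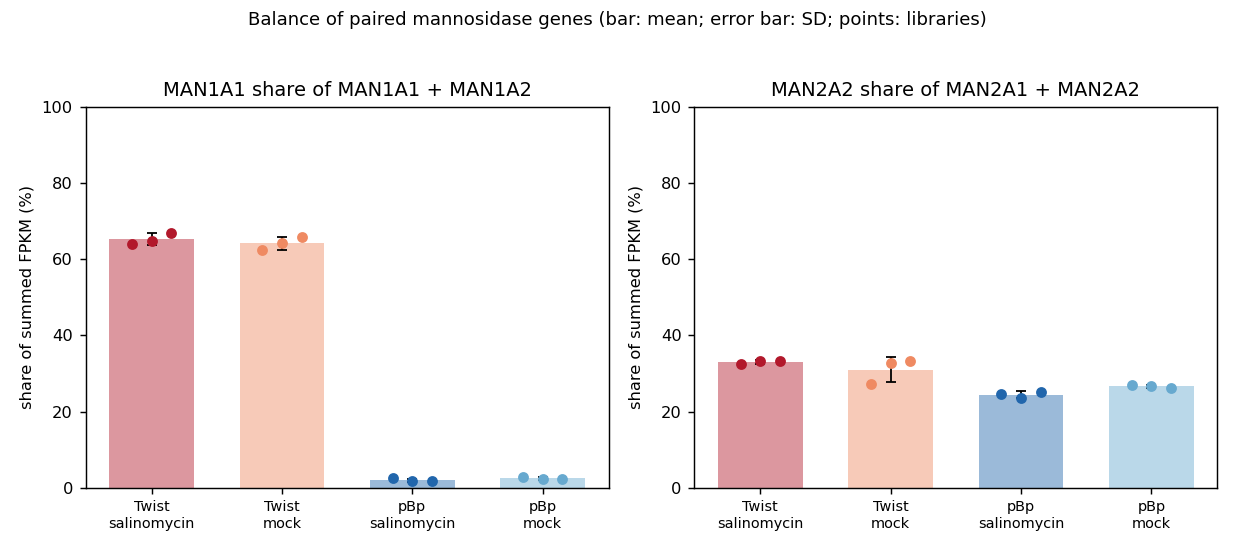
Share of MAN1A1 in the summed FPKM of MAN1A1 and MAN1A2 (left) and of MAN2A2 in the summed FPKM of MAN2A1 and MAN2A2 (right), in percent, for HMLE-Twist salinomycin, HMLE-Twist mock, HMLE-pBp salinomycin and HMLE-pBp mock. Bars are means, error bars SDs of 3 libraries and points libraries; the MAN1A1 share averages 65.3% and 64.2% in the HMLE-Twist groups and 2.01% and 2.47% in the HMLE-pBp groups.

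The second pair of mannosidases was lower in HMLE-Twist without such an exchange. MAN2A1 averaged 13.2 ± 0.374 FPKM in HMLE-Twist with salinomycin and 30.9 ± 2.38 FPKM in HMLE-pBp with salinomycin, a log2 fold change of -1.17 ± 0.09 (limma adjusted p = 1.52e-07). Under the mock it averaged 12.2 ± 1.07 FPKM in HMLE-Twist and 33.4 ± 2.33 FPKM in HMLE-pBp, a log2 fold change of -1.39 ± 0.09 (limma adjusted p = 2.30e-08). MAN2A2 had log2 fold changes of -0.55 ± 0.08 under salinomycin (limma adjusted p = 7.21e-05) and -1.02 ± 0.08 under the mock (limma adjusted p = 1.97e-07). The share of MAN2A2 in the sum of both was 33.0% ± 0.525 in HMLE-Twist with salinomycin, 31.1% ± 3.37 in HMLE-Twist mock, 24.4% ± 0.872 in HMLE-pBp with salinomycin and 26.6% ± 0.436 in HMLE-pBp mock. The HMLE-Twist mock share of replicate 1, 27.2%, was close to the HMLE-pBp mock shares of 26.1% to 27.0%.

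The transporters were lower in HMLE-Twist, apart from SLC35A1. Under the mock the log2 gap was largest for SLC35C1 and SLC35A2, and under salinomycin for SLC35D1. The mock gaps and the salinomycin responses in HMLE-Twist share the HMLE-Twist mock libraries. SLC35C1 averaged 15.3 ± 1.56 FPKM in HMLE-Twist with salinomycin and 24.9 ± 5.29 FPKM in HMLE-pBp with salinomycin, a log2 fold change of -0.65 ± 0.16 (limma adjusted p = 0.00409). Under the mock it averaged 7.07 ± 1.104 FPKM in HMLE-Twist and 23.8 ± 3.89 FPKM in HMLE-pBp, a log2 fold change of -1.61 ± 0.16 (limma adjusted p = 1.99e-06). For SLC35A2 the log2 fold change between the lines was -0.74 ± 0.15 under salinomycin (limma adjusted p = 0.000955) and -1.32 ± 0.15 under the mock (limma adjusted p = 6.21e-06). The change in these gaps is the difference of responses tested above, called for SLC35C1 and, for SLC35A2, with the block and not without it.

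For SLC35A3, SLC35B1 and SLC35D1 no change of the gap with treatment was called (limma adjusted p of the difference of responses 0.791, 0.818 and 0.477). SLC35B1, the most abundant of the transporters per length, had log2 fold changes of -0.73 ± 0.10 under salinomycin and -0.79 ± 0.10 under the mock (limma adjusted p = 3.27e-05 and 1.34e-05). SLC35D1 had -0.89 ± 0.11 and -0.72 ± 0.11 (limma adjusted p = 1.49e-05 and 6.77e-05), and SLC35A3 had -0.56 ± 0.12 and -0.64 ± 0.12 (limma adjusted p = 0.00110 and 0.000343). SLC35A1 had -0.15 ± 0.10 (limma adjusted p = 0.208; 95% interval -0.37 to 0.07) and -0.07 ± 0.10 (limma adjusted p = 0.543; 95% interval -0.29 to 0.15), and its lines overlapped under both treatments.

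**Figure D4:**
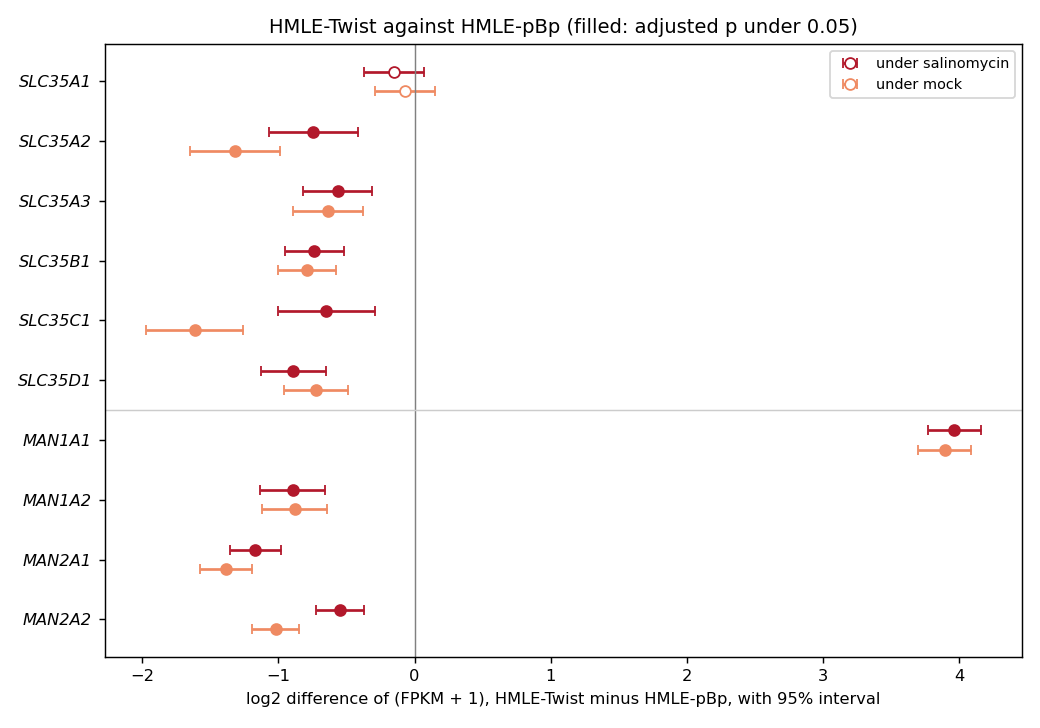
Log2 difference of (FPKM + 1), HMLE-Twist minus HMLE-pBp (horizontal axis), of the 10 genes under salinomycin (dark red, upper mark) and under the mock (orange, lower mark), with 95% intervals from the limma fit; filled marks passed at an adjusted p under 0.05. MAN1A1 lies at 3.96 and 3.89, SLC35A1 lies near 0 with open marks, and the other 8 genes lie to the left of 0.

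Within each gene the order of the 4 groups took a few forms. SLC35A2 ran from HMLE-Twist mock (10.6 ± 2.23 FPKM) over HMLE-Twist salinomycin (26.2 ± 2.46) and HMLE-pBp mock (27.8 ± 4.85) to HMLE-pBp salinomycin (44.5 ± 3.76), and its middle 2 groups lay within their SDs of each other. SLC35C1 had its lowest level in HMLE-Twist mock, the next in HMLE-Twist salinomycin, and 2 HMLE-pBp groups that overlapped. SLC35A3, SLC35B1, SLC35D1, MAN1A2 and MAN2A1 had the 2 HMLE-Twist groups below the 2 HMLE-pBp groups, with the treatments of HMLE-pBp overlapping. MAN2A2 stepped up from HMLE-Twist mock to HMLE-Twist salinomycin, HMLE-pBp salinomycin and HMLE-pBp mock with no overlap between neighbours, while SLC35A1 was lower in both salinomycin groups than in both mock groups.

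Over the 12 libraries the genes whose log2(FPKM + 1) was most like that of SLC35A2 were P4HB, a protein disulfide isomerase of the ER (Pearson r = 0.991), YIPF2, a membrane protein of the Golgi (r = 0.988), and ORMDL3, an ER protein that restrains sphingolipid synthesis (r = 0.987). SLC35C1 came 79th, with r = 0.935. The 12 libraries fall into 4 groups, so these r values describe a shared order of groups. P4HB averaged 717 ± 43.9 FPKM in HMLE-Twist with salinomycin and 378 ± 62.8 FPKM in HMLE-Twist mock, and 1020 ± 64.3 and 734 ± 63.1 FPKM in HMLE-pBp with salinomycin and with the mock. YIPF2 averaged 57.0 ± 6.01 and 20.3 ± 5.82 FPKM in HMLE-Twist and 109 ± 9.68 and 53.8 ± 8.40 FPKM in HMLE-pBp, in the same order.

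Around the group, 5 lists of related genes were counted in the same fits. Their counts stand beside the shares of all genes tested, which were 12.9% higher and 13.7% lower for salinomycin in HMLE-Twist, 9.75% and 9.40% in HMLE-pBp, 31.4% and 32.1% between the lines under salinomycin, and 36.2% and 37.3% between the lines under the mock. Of 21 other SLC35 genes 17 were tested (SLC35D3 was below the filter, and the reads of SLC35E3, SLC35F1 and SLC35F4 were not settled). In HMLE-Twist 5 of the 17 rose with salinomycin and 0 fell, with a median log2 fold change of 0.26, and in HMLE-pBp 1 rose and 2 fell, with a median of 0.04. SLC35E1 rose in both lines, to 37.8 ± 2.10 FPKM in HMLE-Twist with salinomycin, against 17.0 ± 1.502 FPKM in the mock (1.11 ± 0.10, limma adjusted p = 2.38e-05), and to 65.7 ± 4.26 FPKM in HMLE-pBp with salinomycin, against 35.2 ± 4.27 FPKM in the mock (0.89 ± 0.10, limma adjusted p = 0.000185). SLC35F6 rose in HMLE-Twist by 0.76 ± 0.09 (limma adjusted p = 9.23e-05), and its response was larger there than in HMLE-pBp by 0.72 ± 0.12 (limma adjusted p = 0.00403). Between the lines 1 of the 17 was higher and 10 were lower in HMLE-Twist under salinomycin, and 0 were higher and 12 lower under the mock, totals near the 63.5% and 73.5% of all genes called. SLC35F3 led these, at 0.0346 FPKM in HMLE-Twist with salinomycin and 5.86 FPKM in HMLE-pBp with salinomycin. SLC35F3 passed the filter on low values through HMLE-pBp alone, so its call between the lines is not independent of that filter.

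Of 27 genes tested that make nucleotide sugars and the sulfate donor PAPS, 11 rose and 2 fell with salinomycin in HMLE-Twist (median 0.16), where 12.9% and 13.7% of all genes tested did, and 14 rose and 0 fell in HMLE-pBp (median 0.36), where 9.75% and 9.40% did. The rest did not pass. GFPT1, the rate-limiting enzyme of the hexosamine pathway to UDP-N-acetylglucosamine, rose to 23.8 ± 2.06 FPKM in HMLE-Twist with salinomycin, against 9.503 ± 1.999 FPKM in the mock (1.25 ± 0.15, limma adjusted p = 0.000101). In HMLE-pBp it rose to 22.5 ± 4.10 FPKM, against 8.33 ± 0.467 FPKM in the mock (1.32 ± 0.15, limma adjusted p = 0.000154). PGM3, a later enzyme of that pathway, rose by 1.02 ± 0.09 and 1.202 ± 0.09 (limma adjusted p = 1.69e-05 and 6.18e-06). SLC35A3, which carries the end product of that pathway, had intervals that include 0 in both lines (above).

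For other members of that list the responses of the lines differed. PMM2, a phosphomannomutase on the path to GDP-mannose and GDP-fucose, had a response of 1.06 ± 0.10 in HMLE-Twist, against 0.43 ± 0.10 in HMLE-pBp, a difference of 0.63 ± 0.14 (limma adjusted p = 0.0153). GNE, the first enzyme of sialic acid synthesis, had 7.19 ± 0.849 FPKM in HMLE-Twist with salinomycin and 7.34 ± 1.18 FPKM in the mock, and rose in HMLE-pBp to 3.73 ± 0.404 FPKM, against 1.74 ± 0.350 FPKM in the mock, a difference of responses of -0.81 ± 0.18 (limma adjusted p = 0.0147). UGP2, which makes UDP-glucose, fell in HMLE-Twist to 77.7 ± 1.86 FPKM, against 97.7 ± 5.48 FPKM in the mock (-0.33 ± 0.08, limma adjusted p = 0.00929). In HMLE-pBp UGP2 had 40.6 ± 3.54 FPKM with salinomycin and 34.4 ± 1.40 FPKM with the mock. That response of 0.23 ± 0.08 did not pass without a block (limma adjusted p = 0.0614) and passed with the replicate number as a block (0.0237). The responses of UGP2 differed by -0.55 ± 0.11 (limma adjusted p = 0.00883). Between the lines 17 of the 27 were higher and 3 lower in HMLE-Twist under salinomycin, where 31.4% and 32.1% of all genes tested were, and likewise 17 and 3 under the mock, where 36.2% and 37.3% were, with medians of 0.52 and 0.78. UGDH, which makes UDP-glucuronic acid, one of the substrates of SLC35D1, averaged 47.5 ± 4.70 FPKM in HMLE-Twist with salinomycin and 8.64 ± 2.19 FPKM in HMLE-pBp with salinomycin.

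Of 14 other mannosidases and enzymes of early N-glycan trimming 13 were tested, and 4 rose and 0 fell with salinomycin in HMLE-Twist (median 0.30), while 1 rose and 1 fell in HMLE-pBp (median -0.07), totals to be read against the 26.6% and 19.1% of all genes called. MOGS, the glucosidase that starts N-glycan trimming in the ER, had 56.7 ± 5.50 FPKM in HMLE-Twist with salinomycin and 26.5 ± 4.91 FPKM in the mock (1.08 ± 0.13, limma adjusted p = 0.000169), and 86.7 ± 5.05 and 83.9 ± 11.4 FPKM in HMLE-pBp with salinomycin and with the mock. Its responses differed by 1.03 ± 0.19 (limma adjusted p = 0.00609). EDEM1, which passes misfolded glycoproteins on to degradation, rose in both lines, by 0.56 ± 0.08 and 0.47 ± 0.08 (limma adjusted p = 0.000465 and 0.00275). Between the lines 0 were higher and 8 of the 13 lower in HMLE-Twist under salinomycin, and 0 and 11 under the mock, among them MANBA, the lysosomal beta-mannosidase, at 5.29 ± 0.656 FPKM in HMLE-Twist with salinomycin and 14.2 ± 0.534 FPKM in HMLE-pBp with salinomycin.

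Of 9 genes of N-glycan branching and core fucosylation, which act on the products of the mannosidases, 7 were tested. With salinomycin 2 rose and 2 fell in HMLE-Twist (median -0.01), and 0 rose and 2 fell in HMLE-pBp (median -0.22). MGAT4B, which starts a branch on complex N-glycans, rose in HMLE-Twist by 0.62 ± 0.14 (limma adjusted p = 0.00576), and its responses differed by 0.84 ± 0.19 (limma adjusted p = 0.0162). MGAT5B, a branching enzyme best known from the brain, fell in both lines from low levels. It averaged 2.01 FPKM in HMLE-Twist with salinomycin and 3.09 FPKM in the mock, and 0.657 and 1.53 FPKM in HMLE-pBp. On the log2(FPKM + 1) scale it fell by 0.44 ± 0.08 and 0.61 ± 0.08 (limma adjusted p = 0.00163 and 0.000411). The added 1 makes these falls smaller than those of the FPKM values. In the comparison of the lines 1 of the 7 was higher and 6 lower in HMLE-Twist under salinomycin, where 31.4% and 32.1% of all genes tested were. Under the mock 1 was higher and 5 lower, where 36.2% and 37.3% were. The lower genes under salinomycin include MGAT4A, at 0.0349 FPKM in HMLE-Twist and 1.74 FPKM in HMLE-pBp. MGAT4A passed the filter on low values through HMLE-pBp alone, so its call between the lines is not independent of that filter. Of 7 luminal nucleotide phosphatases and Golgi ion transporters 6 were tested, and 3 rose in HMLE-Twist and 1 in HMLE-pBp, with 0 falling. ENTPD4, a Golgi nucleotide phosphatase that clears the UDP left by sugar transfer, had 15.6 ± 0.438 FPKM in HMLE-Twist with salinomycin and 11.6 ± 1.07 FPKM in the mock (0.40 ± 0.08, limma adjusted p = 0.00471). TMEM165, which the Golgi needs for its manganese supply, rose by 0.40 ± 0.09 in HMLE-Twist (limma adjusted p = 0.00710). All 6 were lower in HMLE-Twist than in HMLE-pBp, under salinomycin, where 32.1% of all genes tested were lower, and under the mock, where 37.3% were. Each count of 0 given for these 5 lists was also 0 in voom, and 0 or 1 at an unadjusted limma p under 0.05. All list counts are from the fit without a block, and a block changed some calls. SLC35G1 fell in HMLE-Twist with a block within each line (limma adjusted p = 0.00106, against 0.128 without a block). With the replicate number as a block SLC35E4 rose in HMLE-Twist (limma adjusted p = 0.00135, against 0.0566) and fell in HMLE-pBp (0.00417, against 0.105).

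**Figure D5:**
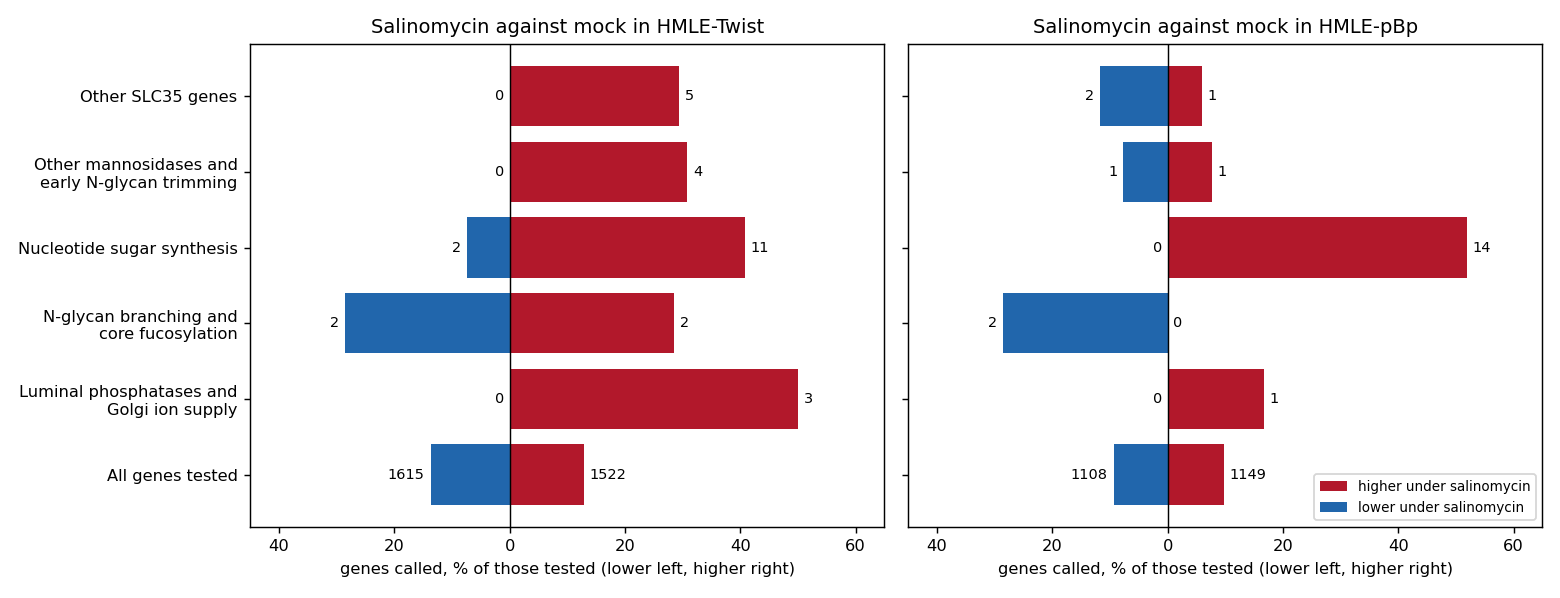
Share of the genes tested in each of 5 related lists, and among all 11786 genes tested, that were called higher (red, right of 0) or lower (blue, left of 0) with salinomycin, in percent, in HMLE-Twist (left panel) and HMLE-pBp (right panel); numbers are counts of genes. The nucleotide sugar synthesis list has 11 genes higher and 2 lower in HMLE-Twist and 14 higher and 0 lower in HMLE-pBp, beside 1522 and 1615, and 1149 and 1108, of all genes tested.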

How the data were processed

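RNA from 4 groups of 3 HMLE cultures was made into stranded mRNA libraries from 750 ng of RNA and read with 75 cycles per end, per the labels. The authors deposited 1 table per group. The mock tables hold FPKM and the salinomycin tables hold shrunken log2 values, judged from the deposited values; the submitters' processing notes name DESeq2 (1.1.0) and hg19, and what aligned and counted the reads is not given in the sources used here.

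Because the tables were normalized apart, whole reads were recovered first. In the mock tables each value is a whole multiple of the worth of 1 read. For the salinomycin tables the shrinkage was undone, and 98.5% (HMLE-Twist) and 96.0% (HMLE-pBp) of values came within 0.1 of a whole read, or 80.0% and 60.4% of those over 10000 reads; the largest distance was 0.0521% and 0.0522% of a value over 1000 reads. Of 18887 genes with mock reads, 1484 were left out because a multiple of their reads was not settled, 343 of them with over 100 mock reads. None is among the 10. For SLC35A3 the union of exons would admit a larger multiple of its recovered length. Its ratio of salinomycin to mock came to 1.03 (HMLE-Twist) and 0.984 (HMLE-pBp) with the length used. These ratios are the response reported for this gene, so they are no independent check of that multiple.

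FPKM was rebuilt with size factors (median of ratios) shared by the 12 libraries. Genes with FPKM of at least 1 in at least 3 libraries were tested with limma 3.58.1 in R 4.3.3 (lmFit, contrasts, eBayes with trend) on log2(FPKM + 1), two-sided, adjusted by Benjamini-Hochberg over all 11786 genes, with a threshold of 0.05. The script was tested on simulated data. The recovered counts of reads served in an alternative fit with voom. The cultures are labelled biological replicates. Same-numbered libraries of salinomycin and mock deviated together within a line (correlations of 0.456, 0.434 and 0.723 in HMLE-Twist and 0.539, 0.234 and 0.609 in HMLE-pBp), so the numbers pair libraries within a line. The main fit does not use this pairing. For the transporters and mannosidases of the group, blocked values are printed where they change a call. For the related lists a block changed some calls as well, and only part of these are printed. Between the lines replicates 1, 2 and 3 had 0.261, 0.0690 and 0.571 under the mock. Under salinomycin they had 0.281, 0.0399 and 0.604. For replicate 2 of HMLE-Twist a HMLE-pBp library of another number was closer, at 0.135 (mock) and 0.282 (salinomycin). The block within each line was added after this was seen.

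The 10 genes, the 5 lists and the tests were chosen with earlier results of these data known. All 10 were named, and of each list genes among the 2 largest rises and 2 largest falls called in a comparison; for SLC35A2 also the 3 genes of highest Pearson r. No coordinates of the data are given, since the files are on hg19; the promoter sequences and their coordinates are RefSeq's for GRCh38.p14, with 9 of the 10 genes matched by symbol.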

Additional observations from a re-analysis of the deposited data

Results flagged for a closer look

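Without a block, the salinomycin responses of 2 genes differed between the lines by the test of the difference itself. With the replicate number as a block SLC35A2 passed as well (limma adjusted p = 0.0152). For SLC35C1 the log2 response was larger in HMLE-Twist than in HMLE-pBp by 0.97 (limma adjusted p = 0.0194; 1.02 ± 0.16 and 0.05 ± 0.16, SE), with a ratio of salinomycin to mock above 1 in 3 of 3 replicate numbers in HMLE-Twist and in 1 of 3 in HMLE-pBp. For MAN2A2 the difference was 0.47 (limma adjusted p = 0.0199; 0.22 ± 0.08 and -0.26 ± 0.08), with a ratio of salinomycin to mock above 1 in 3 of 3 replicate numbers in HMLE-Twist and below 1 in 3 of 3 in HMLE-pBp. Both differences lay close enough to the threshold to be lost without any 1 of several libraries, with adjusted p up to 0.0556 and 0.0604, and both passed with the replicate number as a block (0.00411 and 0.00310).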

How the results depend on the processing

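Of 840 values of single genes under an alternative, 788 kept their direction and their side of the threshold, 23 lost the call, 12 gained it and 17 changed sign, none of the last a called value. With the replicate number as a block, the genes called numbered 3959 for salinomycin in HMLE-pBp and 3479 for the difference of responses, against 2257 and 1635; with a block within each line they numbered 4794 in HMLE-Twist, 4332 in HMLE-pBp and 3880 for the difference, against 3137 in HMLE-Twist without a block. The pairing changed no call among the 10 genes beyond those given beside the results. A pseudocount of 0.1 left 1 of the 10 called in HMLE-pBp. Leaving out 1 library of the groups compared gave 2202 to 3441 genes called for salinomycin in HMLE-Twist, 1137 to 2492 in HMLE-pBp and 780 to 2399 for the difference, and 2 to 4, 1 to 2 and 0 to 3 of the 10 genes; between the lines it gave 7953 to 8660 under the mock and 6713 to 7400 under salinomycin, and 9 of the 10 throughout. Leaving out a library of a group not compared, which enters the fit only through the shared spread, gave up to 3132 for salinomycin in HMLE-pBp (without HMLE-Twist mock replicate 1), 8738 between the lines under the mock and 7986 under salinomycin. The lowest count was without HMLE-Twist salinomycin replicate 3 in HMLE-Twist and without HMLE-pBp mock replicate 3 in HMLE-pBp and for the difference. No difference among the 10 was called by limma without HMLE-Twist salinomycin replicate 3 or HMLE-pBp mock replicate 3, where 3 and 2 of them had an unadjusted p under 0.05.

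Leaving out 1 library changed the sign of SLC35A3 (-0.078 to 0.197 in HMLE-Twist, -0.056 to 0.028 in HMLE-pBp, -0.056 to 0.219 for the difference), of SLC35C1 in HMLE-pBp (-0.080 to 0.222), of the differences of SLC35A1 (-0.153 to 0.020), SLC35B1 (-0.020 to 0.118) and MAN1A2 (-0.100 to 0.101), and of SLC35A1 between the lines under the mock (-0.172 to 0.0012). It also changed in TPM for the difference of MAN1A2 (0.0036) and with scaling by total reads for SLC35A1 between the lines under the mock (0.074); the cause was not tested. In TPM 864 genes were higher and 517 lower in the difference of responses, against 835 and 800. Levels in FPKM moved with the gene length used, by more than the SD for 24 of 40 group means.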
